A study of Mus musculus with 9 samples.

Results

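The genes described here are the platelet-derived growth factor (PDGF) receptors Pdgfra and Pdgfrb, the ligand genes Pdgfa and Pdgfb, and 6 surface or secreted proteins of mesenchymal cells, Cd248, Thy1, Mrc2, Npr3, Slit3 and Crispld2. They were measured in lung cell cultures from mice without the transcription factor Nrf2, with and without glutathione (GSH), and from wild-type mice. All probe sets whose single symbol in the platform annotation is a member were taken, which gave 20 probe sets for the 10 genes out of 45037 probe sets analysed. Some of the genes were chosen by their measured signal, for its fall in Nrf2-/- cells with GSH. The values of Nrf2-/- cells with GSH against Nrf2-/- cells without it are therefore a description and carry no test.

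PDGFs are secreted dimers that bind a pair of receptor tyrosine kinases on the surface of mesenchymal cells. In the lung, epithelial cells make PDGF-A and fibroblasts carry PDGFR-alpha, a signal needed for alveolar myofibroblasts, while PDGF-B recruits pericytes and smooth muscle cells, which carry PDGFR-beta. The other members also mark stromal cells. Cd248 (endosialin) is a C-type lectin-like glycoprotein of pericytes and fibroblasts, Thy1 (CD90) is a GPI-anchored surface protein of fibroblasts and T cells, and Mrc2 (Endo180) takes up collagen for breakdown. Npr3 is the clearance receptor for natriuretic peptides, Slit3 is a secreted guidance ligand of ROBO receptors, and Crispld2 is a secreted protein of the CAP family known from lung mesenchyme.

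RNA was measured on Affymetrix mouse expression arrays, 3 for each of 3 groups. The KO+GSH group is labelled as lung type II cells of Nrf2-/- mice, with GSH, the KO group as such cells without the supplement, and the WT group as type II cells of Nrf2+/+ mice. Every label names the ICR10 strain, female sex and an age of 2 months. No dose or time of GSH is given, nor whether the mice or the cultures received it. For all arrays, those with GSH included, the treatment field of the labels says that there was none. Type II cells, the alveolar cells that make surfactant, were enriched by removing macrophages on IgG plates and fibroblasts by adherence, and the remainder was cultured for 5 days with keratinocyte growth factor on plates coated with fibronectin and collagen, per the labels' protocols. In each group 2 arrays carry the set number 2 in the sample title and 1 carries 3, and no source says what the number stands for. Nothing in the labels tells whether replicate arrays stand for different mice or cultures, so p-values cover the spread between arrays, which may be technical only. The small number of arrays limits precision.

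The labels were checked against the signals, which are in arbitrary units on a linear scale. Nfe2l2, the gene of Nrf2, read 33.3 to 46.2 on KO+GSH arrays and 28.7 to 77.4 on KO arrays, against 3879 to 4173 on WT arrays, by its bright probe set. Its other, dim probe set went another way, at 121 to 188.9 on KO+GSH arrays and 34.4 to 68.6 on KO arrays, against 35.8 to 51.6 on WT arrays, and the labels do not say which exons the knockout removed. The Y-linked gene Eif2s3y averaged 7.43 on KO+GSH arrays and 9.27 on KO arrays, against 801 on WT arrays, although all animals are labelled female. Sex and genotype therefore cannot be told apart in comparisons with WT. Of the type II cell markers, Sftpc (surfactant protein C) averaged 107.8 in KO+GSH and 89.1 in KO, against 37.3 in WT, where no array had it above the control level, a high percentile of the control probe sets of that array. Signal of fibroblast genes was present in all groups, for example Col1a1 at 5957 in KO+GSH, 20178 in KO and 14854 in WT. Over all probe sets, log2 signals correlated at 0.936 to 0.958 between arrays of the same group and set, and at 0.912 to 0.941 between groups within a set.

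Promoter sequences, from 250 bases before to 50 bases after a transcription start, were found for 5 of the 10 members in RefSeq's mouse assembly GRCm38.p6. Pdgfb, Cd248, Thy1, Mrc2 and Pdgfrb had no entry in the table used. The first 4 sequences below belong to genes whose signals were low together on the KO+GSH arrays, and the last to Pdgfa, whose signal changed least between the KO groups. Each is given 5' to 3' on the gene's own strand, and capitals mark matches to the searched motifs. The Pdgfra window lies at chr5:75152001-75152300 on the plus strand, Npr3 at chr15:11907322-11907621 on the minus strand, Slit3 at chr11:35121206-35121505 on the plus strand and Crispld2 at chr8:119992188-119992487 on the plus strand. The Pdgfa window, at the first of its 2 listed starts, lies at chr5:138994232-138994531 on the minus strand.
Pdgfra: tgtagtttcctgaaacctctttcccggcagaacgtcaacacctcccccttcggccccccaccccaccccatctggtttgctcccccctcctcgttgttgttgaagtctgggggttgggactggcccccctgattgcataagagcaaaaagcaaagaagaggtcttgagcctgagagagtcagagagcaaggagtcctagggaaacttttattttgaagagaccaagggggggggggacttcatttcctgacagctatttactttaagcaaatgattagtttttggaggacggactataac
Npr3: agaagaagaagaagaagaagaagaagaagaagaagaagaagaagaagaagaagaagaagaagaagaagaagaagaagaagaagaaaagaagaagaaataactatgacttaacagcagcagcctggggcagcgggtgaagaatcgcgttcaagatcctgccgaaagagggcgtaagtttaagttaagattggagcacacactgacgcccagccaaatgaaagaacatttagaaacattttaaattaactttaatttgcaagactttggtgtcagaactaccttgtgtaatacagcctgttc
Slit3: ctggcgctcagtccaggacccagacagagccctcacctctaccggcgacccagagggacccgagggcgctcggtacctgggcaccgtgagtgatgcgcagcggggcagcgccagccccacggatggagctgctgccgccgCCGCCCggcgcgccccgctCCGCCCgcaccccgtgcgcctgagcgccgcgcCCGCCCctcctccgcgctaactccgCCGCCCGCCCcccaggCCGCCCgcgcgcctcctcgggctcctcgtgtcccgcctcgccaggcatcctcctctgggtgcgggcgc
Crispld2: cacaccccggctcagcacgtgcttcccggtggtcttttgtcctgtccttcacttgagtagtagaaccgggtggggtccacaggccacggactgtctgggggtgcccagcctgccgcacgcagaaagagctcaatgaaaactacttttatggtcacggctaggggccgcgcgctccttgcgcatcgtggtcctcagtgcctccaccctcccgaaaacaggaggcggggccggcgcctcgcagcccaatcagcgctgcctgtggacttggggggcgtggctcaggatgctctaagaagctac
Pdgfa: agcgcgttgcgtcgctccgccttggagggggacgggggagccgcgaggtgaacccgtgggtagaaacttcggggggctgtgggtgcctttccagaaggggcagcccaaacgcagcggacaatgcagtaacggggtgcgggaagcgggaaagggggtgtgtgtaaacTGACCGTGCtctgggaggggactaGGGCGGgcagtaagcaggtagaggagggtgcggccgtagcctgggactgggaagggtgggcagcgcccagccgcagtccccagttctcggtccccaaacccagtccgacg
The 5 windows share little in base composition. G and C made up 39.0% of the Npr3 window and 51.0% of the Pdgfra window, against 63.0% for Crispld2, 67.0% for Pdgfa and 78.3% for Slit3, and the median over all mouse promoters in the table was 52.7%. CpG dinucleotides numbered 6, 5, 20, 24 and 41 in the same order. The motifs searched on both strands were the NRF2 antioxidant response element core TGACNNNGC, the AP-1 site TGANTCA, the GC box GGGCGG, the TATA box TATAAA and the SRF CArG box by name. The antioxidant response element core, present in 12.4% of 32851 promoters of this length, was found once among these windows, 84 bases before the Pdgfa start. GC boxes, present in 35.7% of all promoters, were found 6 times in the Slit3 window, where 2 matches overlap each other, and 1 time in the Pdgfa window. AP-1 sites (7.81% of all promoters), TATA boxes (13.6%) and CArG boxes (1.63%) were not among the letters of these windows. A match to a motif is a description of the letters and not a binding site.

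Both PDGF receptor genes had far lower signals in KO+GSH cells than in KO or WT cells. Pdgfra by its brightest probe set, 1421917_at, read 381.5, 383.5 and 361.6 on KO+GSH arrays, 5543, 5718 and 8588 on KO arrays, and 3148, 2829 and 4032 on WT arrays. The 3 groups did not overlap, with KO+GSH lowest and KO highest. The KO+GSH mean of 376 ± 12.1 was 5.68% of the KO mean of 6616 ± 1709.6 (SD, n = 3 arrays each), a log2 difference of -4.11 or 17.3-fold. Against the WT mean of 3336 ± 623 the log2 difference of KO+GSH was -3.14. The other 2 probe sets had the same order of groups. With 1421916_at the signals were 276.0, 242.1 and 154.5 in KO+GSH, 2275, 2515 and 1379.9 in KO, and 923.6, 924.5 and 624.3 in WT. With 1438946_at they were 118.3, 57.8 and 81.8 in KO+GSH, where 2 of 3 arrays lay above the control level, 657.0, 444.8 and 902.9 in KO, and 289.3, 425.5 and 446.6 in WT. These are bulk cultures, in which fewer cells of a type and less RNA per cell cannot be told apart.

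In KO against WT cells Pdgfra was higher by limma, which here shares the KO arrays with the contrast that chose members, so that these tests are not independent of that choice. The log2 difference was 0.97 for 1421917_at (95% interval 0.71 to 1.24, limma adjusted p = 0.000108) and 1.30 for 1421916_at (limma adjusted p = 1.67e-06), and both remained called under every alternative run. For 1438946_at, whose KO and WT arrays overlapped, it was 0.75 (limma adjusted p = 0.064). That probe set was called without KO+GSH replicate 2 (limma adjusted p = 0.0157) or without KO replicate 3 (0.0345), and under 2 other alternatives.

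Pdgfrb was low only on the KO+GSH arrays, and KO and WT arrays overlapped. Probe set 1436970_a_at read 187.5, 200 and 256.2 in KO+GSH, 1916, 2358 and 2094 in KO, and 1856, 1884 and 2312 in WT. KO+GSH lay 9.95-fold below KO (log2 difference -3.31) and 9.44-fold below WT (-3.24). Between KO and WT the log2 difference was 0.08 with a 95% interval of -0.16 to 0.31 (limma adjusted p = 0.65). The dimmer probe set 1417148_at read 14.9, 10.8 and 32.2 in KO+GSH, not above the control level on any array, against 611.6, 419.4 and 597.9 in KO and 433.9, 607.4 and 525.4 in WT. Its KO+GSH signal was at least 8.87-fold below KO and at least 8.58-fold below WT, where such a bound sets the brighter group's mean against the control level of the dim arrays. Its KO against WT difference was 0.05 (limma adjusted p = 0.92). Whether Pdgfra and Pdgfrb differed from each other in their KO against WT change was not tested.

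**Figure D1:**
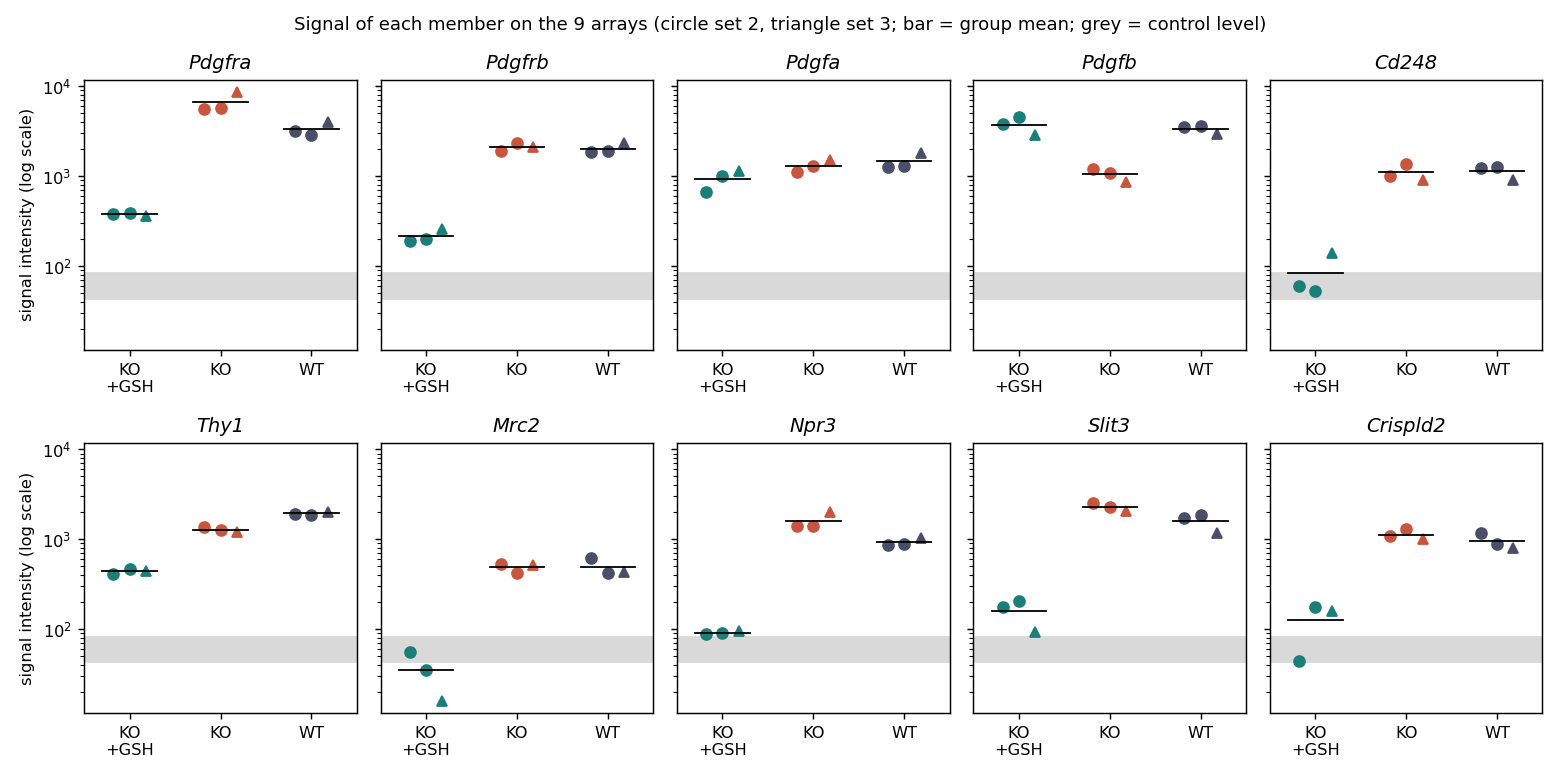
Signal intensity (log scale) of the brightest probe set of each of the 10 members on the 9 arrays, with KO+GSH at the left, then KO, then WT; circles are arrays of set 2, triangles the array of set 3, bars group means and the grey band the range of the arrays' control levels, 43.4 to 82.9. KO+GSH arrays lie below KO arrays in 8 panels, overlap with them for Pdgfa and lie above them for Pdgfb.

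The ligand genes did not follow the receptors. Pdgfb, by 1450414_at, read 3788, 4506 and 2834.5 in KO+GSH, 1209, 1094 and 858.2 in KO, and 3470.2, 3617 and 2939 in WT. The KO arrays were the low ones, and KO+GSH and WT arrays overlapped. KO+GSH lay 3.49-fold above KO (log2 difference 1.80) and 0.13 from WT on the log2 scale. KO lay below WT by limma, at 31.5% of the WT mean (log2 difference -1.67, 95% interval -1.86 to -1.49, limma adjusted p = 1.01e-07). The dimmer probe set 1450413_at gave 751.0, 694.9 and 505.5 in KO+GSH, 279.3, 268.9 and 185.0 in KO, and 648.9, 623.0 and 357.1 in WT. Its KO arrays were again the low ones, with log2 differences of 1.42 for KO+GSH against KO and -1.13 for KO against WT (limma adjusted p = 1.97e-05). Both Pdgfb calls between KO and WT held under every alternative run. Pdgfb was the only member with higher signal in KO+GSH than in KO.

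Pdgfa varied least among the members between the KO groups. By 1449187_at it read 660.6, 1001 and 1131 in KO+GSH, 1116, 1288 and 1512 in KO, and 1271, 1294.5 and 1788 in WT, and all groups overlapped their neighbours. The log2 difference was -0.51 between KO+GSH and KO and -0.15 between KO and WT (95% interval -0.43 to 0.14, limma adjusted p = 0.45). By 1418711_at it read 801.2, 824.6 and 892.2 in KO+GSH, 903.3, 863.2 and 1033 in KO, and 1507, 1363 and 1560.4 in WT. There both KO groups lay below all WT arrays, with KO at 63.2% of WT (log2 difference -0.66, limma adjusted p = 5.53e-05) and KO+GSH 0.15 below KO on the log2 scale. The 2 Pdgfa probe sets thus differed in their KO against WT call, and over the 9 arrays they correlated at 0.68, the lowest value among the members with several probe sets. No source used here says which Pdgfa transcripts each probe set detects.

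**Figure D2:**
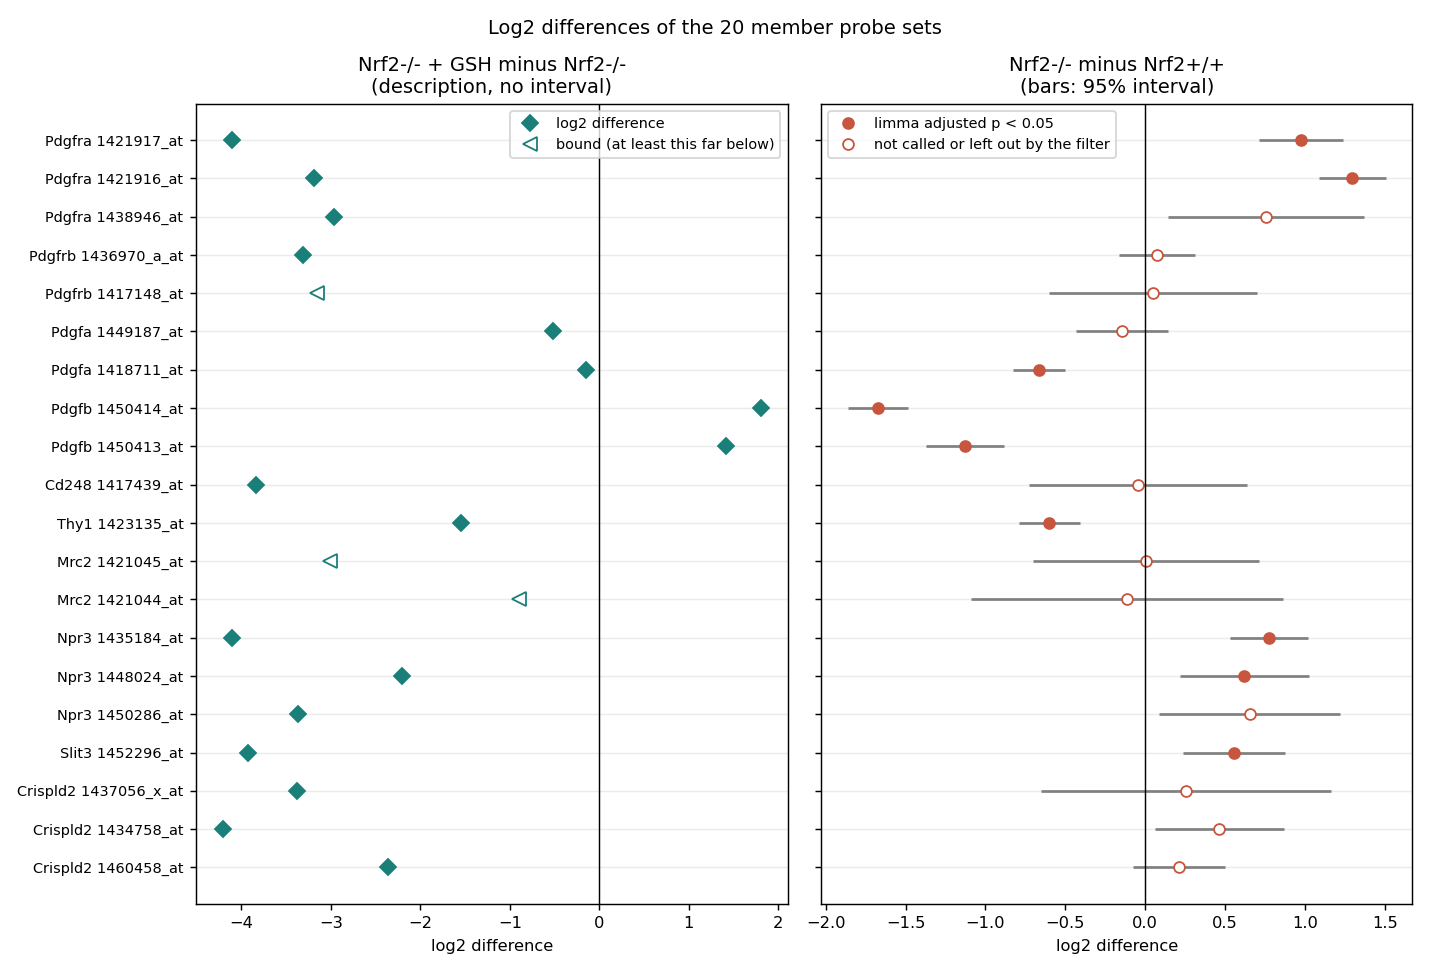
Log2 difference of each of the 20 member probe sets between KO+GSH and KO (left, description only; open triangles are bounds) and between KO and WT (right, with 95% intervals; filled where the limma adjusted p was under 0.05). In the left panel only the 2 Pdgfb probe sets lie above 0; in the right panel Pdgfra, Npr3 and Slit3 have filled points above 0 and Pdgfa, Pdgfb and Thy1 below it.

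Of the 20 probe sets 19 passed the signal filter, a geometric mean of 116 or more over the arrays, and some passed only through the groups in which they are bright. Between KO and WT, limma called 5 of the 19 higher and 4 lower in KO, with a median log2 difference of 0.21, against 14.6% higher and 14.6% lower over all 22519 probe sets tested and a median of 0.00. Between KO+GSH and KO, the contrast used to pick some of them, 2 were called higher and 16 lower, with a median of -3.31, where all probe sets had 18.4% called higher, 17.0% called lower and a median of 0.04. Between KO+GSH and WT, which shares the KO+GSH arrays, 0 were called higher and 17 lower with a median of -2.71, where all probe sets had 22.5% higher, 22.3% lower and a median of 0.02. The last 2 counts are a description of genes some of which were picked for this fall. The 3 comparisons share arrays, so their values stand side by side and are not independent.

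Among the surface proteins, Cd248 and Mrc2 lay at or near the control level in KO+GSH, while Thy1 had a smaller difference from KO. Cd248, measured by 1417439_at, read 59.4, 52.1 and 138.8 in KO+GSH, where 1 of 3 arrays lay above the control level, 996.6, 1376 and 910.4 in KO, and 1223.5, 1246 and 899.2 in WT. The KO+GSH arrays lay well below the others, while KO and WT overlapped. Its log2 difference between KO+GSH and KO was -3.83, a value that rests on 2 KO+GSH signals not above the control level, so its size is uncertain. For KO against WT it was -0.04 with an interval of -0.73 to 0.64 (limma adjusted p = 0.94).

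Mrc2 by 1421045_at read 55.7, 35 and 15.9 in KO+GSH, none above the control level, 528.4, 422.5 and 519.0 in KO, and 625.0, 424.0 and 431.6 in WT. KO+GSH was at least 8.08-fold below KO and at least 8.05-fold below WT, and KO and WT overlapped with a log2 difference of 0.01 (95% interval -0.70 to 0.72, limma adjusted p = 0.99). The other Mrc2 probe set, 1421044_at, was the member left out by the signal filter. It read 11.6, 15.3 and 10.8 in KO+GSH, 179.5, 198.2 and 40.3 in KO, and 183.7, 156.4 and 63.3 in WT, so that KO+GSH lay at least 1.87-fold below KO.

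Thy1 by 1423135_at kept clear signal in every group. It read 407.7, 467.3 and 445.5 in KO+GSH, 1373, 1271 and 1198.5 in KO, and 1923, 1866 and 2033.5 in WT, and no groups overlapped. The KO+GSH mean of 440.2 ± 30.2 was 34.4% of the KO mean of 1281 ± 87.9 and 22.7% of the WT mean of 1941 ± 85.2 (SD, n = 3 each). Thy1 was lower in KO than in WT by limma (log2 difference -0.60, 95% interval -0.79 to -0.41, limma adjusted p = 0.000336). That call held under every alternative fitted by limma, but not under the fold rule of the series design, which is given below. Most of the fibroblast markers described below were higher in KO than in WT.

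Npr3 had the group order of Pdgfra. Its brightest probe set, 1435184_at, read 88.7, 91.9 and 95.1 in KO+GSH, 1401, 1409 and 2002 in KO, and 856.1, 895.1 and 1032 in WT. KO+GSH lay 17.2-fold below KO (log2 difference -4.11) and 10.1-fold below WT, and KO lay above WT without overlap (log2 difference 0.77, 95% interval 0.53 to 1.02, limma adjusted p = 0.000316). Probe set 1448024_at read 84.8, 69.0 and 55.0 in KO+GSH, 371.1, 353.2 and 239.0 in KO, and 217.9, 202.9 and 195.2 in WT. Its KO against WT difference of 0.62 passed (limma adjusted p = 0.026), but not without KO replicate 2 (limma adjusted p = 0.0909), KO replicate 3 (0.0719), WT replicate 3 (0.0934) or WT replicate 4 (0.118). That call was also lost with no filter (limma adjusted p = 0.0539), no set term (0.134) and the replicate number as a block (0.246). Probe set 1450286_at, above the control level on 1 of 3 KO+GSH arrays, read 32.2, 29.6 and 54.5 in KO+GSH, 381.6, 403.0 and 370.2 in KO, and 266.5, 286.6 and 191.7 in WT. All KO arrays lay above all WT arrays, and the difference of 0.65 missed the threshold (limma adjusted p = 0.081), though it passed without KO+GSH replicate 4 (limma adjusted p = 0.0197).

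Slit3 by 1452296_at read 176.5, 208.2 and 93.9 in KO+GSH, 2532, 2317 and 2072 in KO, and 1739.7, 1852 and 1190.0 in WT. No groups overlapped. KO+GSH lay 15.2-fold below KO (log2 difference -3.93) and 10.4-fold below WT. KO was higher than WT by 0.55 on the log2 scale (95% interval 0.24 to 0.87, limma adjusted p = 0.014). The call was lost without KO replicate 4 (limma adjusted p = 0.084), without WT replicate 3 (0.055), with no term for the set (0.257) and with the replicate number in its place (0.512).

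Crispld2 was low on the KO+GSH arrays by all 3 of its probe sets. Probe set 1437056_x_at read 44.8, 179.0 and 157.9 in KO+GSH, with replicate 2 the lowest and not above the control level, 1091, 1306 and 999.6 in KO, and 1185, 877.4 and 806.8 in WT. KO+GSH lay 10.4-fold below KO, or 6.49-fold without KO+GSH replicate 2, and KO and WT overlapped (log2 difference 0.25, limma adjusted p = 0.69). With 1434758_at the signals were 45.6, 60.1 and 67.8 in KO+GSH, 1 of 3 above the control level, 1115, 1266 and 826.8 in KO, and 825.6, 763.6 and 705.4 in WT. Every KO array lay above every WT array there. That difference of 0.46 (limma adjusted p = 0.083) was called without KO+GSH replicate 2 (limma adjusted p = 0.0316), KO+GSH replicate 4 (0.0309) or KO replicate 4 (0.0313). With 1460458_at they were 136.3, 119.4 and 84.4 in KO+GSH, 645.6, 592.7 and 491.9 in KO, and 523.4, 531.5 and 435.7 in WT, with a log2 difference of 0.21 between KO and WT (limma adjusted p = 0.26).

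Over the 9 arrays 8 members varied closely together, while Pdgfa followed them less closely and Pdgfb correlated negatively with each of them. Some of the 8 were picked for their fall with GSH, so their likeness is partly given by that choice. By the brightest probe set of each gene, log2 signals of Pdgfra and Npr3 correlated at 0.997 and those of Pdgfrb and Cd248 at 0.983, and no pair of the 8 was below 0.864. Pdgfa correlated with the 8 at 0.589 (Mrc2) to 0.802 (Crispld2). Pdgfb had negative values with every other member, between -0.29 with Thy1 and -0.72 with Pdgfra. These values describe 3 groups of 3 arrays, and arrays of a group share genotype, treatment and label. The genes outside the list most like each member were named by the same measure. For Pdgfra they were Tgfbr3 (0.998), a TGF-beta coreceptor that averaged 587.7 in KO+GSH, 4303 in KO and 2937 in WT, and Ptx3 (0.997), a secreted pentraxin, next to the member Npr3. Tgfbr3 also led for Npr3 (0.999), with Sema3d (0.998), a secreted semaphorin, behind it.

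The genes most like Pdgfb were Dsg2, Krt19 and Akap5. Dsg2, a desmosomal cadherin, correlated with it at 0.989 and averaged 1099.6 in KO+GSH, 327.5 in KO and 950.3 in WT. Krt19, a keratin of simple epithelia, correlated at 0.986 and averaged 8235 in KO+GSH, 1369.9 in KO and 6249 in WT, and Akap5, a kinase-anchoring protein, correlated at 0.984. Thy1 was most like Fermt2 (0.997), the focal adhesion protein kindlin-2, Thbd (0.996), the thrombin receptor thrombomodulin, and Agtr1a (0.995), an angiotensin receptor. Cd248 was most like another probe set of the smooth muscle actin gene Acta2 (0.996), with Ptov1 and Ckap4 next. The other leading genes were C1s1, Tfpi2 and Sgce for Pdgfrb, L3hypdh, Mcpt8 and Ptprn for Mrc2, Id4, Nr4a2 and Lama4 for Crispld2, Tspan4, Lix1l and Meg3 for Slit3, and Xrcc6, Exosc7 and Abcg2 for Pdgfa.

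Other genes of the members' pathways were taken from lists of textbook knowledge, with the brightest probe set of each gene. Of 83 listed genes 81 were on the array by a probe set with a single symbol, and 67 passed the filter. Between KO+GSH and KO, 14 were higher, 23 lower and 30 not called, with a median log2 difference of -0.08, where 18.4% of all probe sets were higher and 17.0% lower. Between KO and WT, 16 were higher, 16 lower and 35 not called, with a median of 0.05, where 14.6% of all probe sets were called in each direction. The lists below are described by the same counts, and nothing particular to a list is read from them.

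Among the other PDGF ligands, coreceptors and proteins that handle the ligands, 8 were on the array and 7 passed the filter, of which 0 were higher and 4 lower in KO+GSH than in KO. Sparc, a matrix protein that binds PDGF, averaged 9312 ± 906 in KO+GSH, 26548 ± 5259 in KO and 19673 ± 1349 in WT (SD, n = 3 each), a log2 difference of -1.50 between the KO groups (limma adjusted p = 9.89e-08). The PDGF receptor-like gene Pdgfrl averaged 151 ± 19.3 in KO+GSH against 621 ± 22.9 in KO (-2.04, limma adjusted p = 1.90e-07). Lrp1, an endocytic receptor that PDGFR-beta phosphorylates, was also lower (-0.75), as was Plat (-1.05), the tissue plasminogen activator that cleaves PDGF-CC. Pdgfc itself averaged 1236 ± 190.4 in KO+GSH, 1333 ± 155 in KO and 2129 ± 383 in WT, and was lower in KO than in WT (-0.67, limma adjusted p = 0.001). The gene left out by the filter was Pdgfd, a ligand of PDGFR-beta. It read 90.8, 135.8 and 156.8 in KO+GSH, 56.6, 85.3 and 69.8 in KO, and 92.1, 131.2 and 118.8 in WT, above the control level on every array. Its KO arrays were the low ones and overlapped neither KO+GSH nor WT arrays, with log2 differences of 0.84 for KO+GSH against KO and -0.70 for KO against WT, and it has no adjusted p. All 7 genes past the filter were called between KO and WT, 3 higher and 4 lower. Pdgfrl was higher in KO by 0.79, Sparc by 0.42 and Lrp1 by 0.36, and Plat was lower (-0.84). The Sparc call was lost with quantile normalization (limma adjusted p = 0.618), no set term (0.0897) and the replicate number as a block (0.152). The Lrp1 call was lost with no set term (limma adjusted p = 0.0564) and the block (0.141), and the Plat call with the block (0.0641).

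Components downstream of the receptors had calls in both directions. Of 27 signalling genes, 7 were higher, 6 lower and 14 not called between KO+GSH and KO, not far from the shares over all probe sets (18.4% and 17.0%), so that these counts do not set the list apart. Grb10, an adaptor that binds activated receptors, averaged 1665 ± 38.1 in KO+GSH, 6621 ± 1203 in KO and 7263 ± 382 in WT (log2 difference of KO+GSH from KO -1.98, limma adjusted p = 7.68e-09). The adaptor gene Shc1 (-0.62) and the Src family kinase gene Fyn (-0.87) were lower too. Slc9a3r2, a scaffold protein that binds the PDGF receptor tail, was higher in KO+GSH than in KO (0.84, limma adjusted p = 9.81e-06) and lower in KO than in WT (-1.06, limma adjusted p = 2.86e-06). Ptpn1, a phosphatase acting on receptor tyrosine kinases, averaged 5129 ± 71.6 in KO+GSH, 3579.6 ± 262 in KO and 3269 ± 149 in WT (0.52 between the KO groups). In KO against WT 5 of the 27 were higher, 2 lower and 20 not called.

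Ligands and partners of the other members also had calls. Slit2, like Slit3 a ROBO ligand, averaged 644 ± 77.5 in KO+GSH, 3053 ± 404 in KO and 2763 ± 404 in WT (-2.24 between the KO groups, limma adjusted p = 3.40e-10). In the SLIT and ROBO list 0 of 6 genes past the filter were higher and 4 lower in KO+GSH than in KO, the others being Srgap3 (-0.85), Robo4 (-0.82) and Robo1 (-0.67). The Robo1 call was lost without KO+GSH replicate 4 (limma adjusted p = 0.079) or KO replicate 4 (0.0958). Of 5 genes of the natriuretic peptide system past the filter, the peptide gene Nppb was higher in KO+GSH than in KO (1.27, limma adjusted p = 2.08e-06) and lower in KO than in WT (-0.97, limma adjusted p = 3.32e-05). The cyclic GMP effectors Pde5a (-1.68) and Prkg1 (-1.12) were lower in KO+GSH.

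The MRC2 partners and mannose receptor family had 2 higher and 0 lower of 5 past the filter. Plaur, the urokinase receptor that associates with Endo180, averaged 4686 ± 495 in KO+GSH, 3075 ± 303 in KO and 4394 ± 593 in WT (0.61 between the KO groups). Ly75, an endocytic receptor of the same family, was higher by 1.43. In the CD248 family and its ligands 1 was higher and 1 lower of 5, the lower being Thbd at 755 ± 44.8 in KO+GSH, 2362 ± 71.4 in KO and 4123 ± 135 in WT (-1.65, limma adjusted p = 3.82e-09). The higher one, the lectin gene Lgals3 (0.33), was not called with the replicate number as a block (limma adjusted p = 0.0954) nor without KO+GSH replicate 2 (0.0929) or 4 (0.0652) or KO replicate 2 (0.0899) or 4 (0.125).

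**Figure D3:**
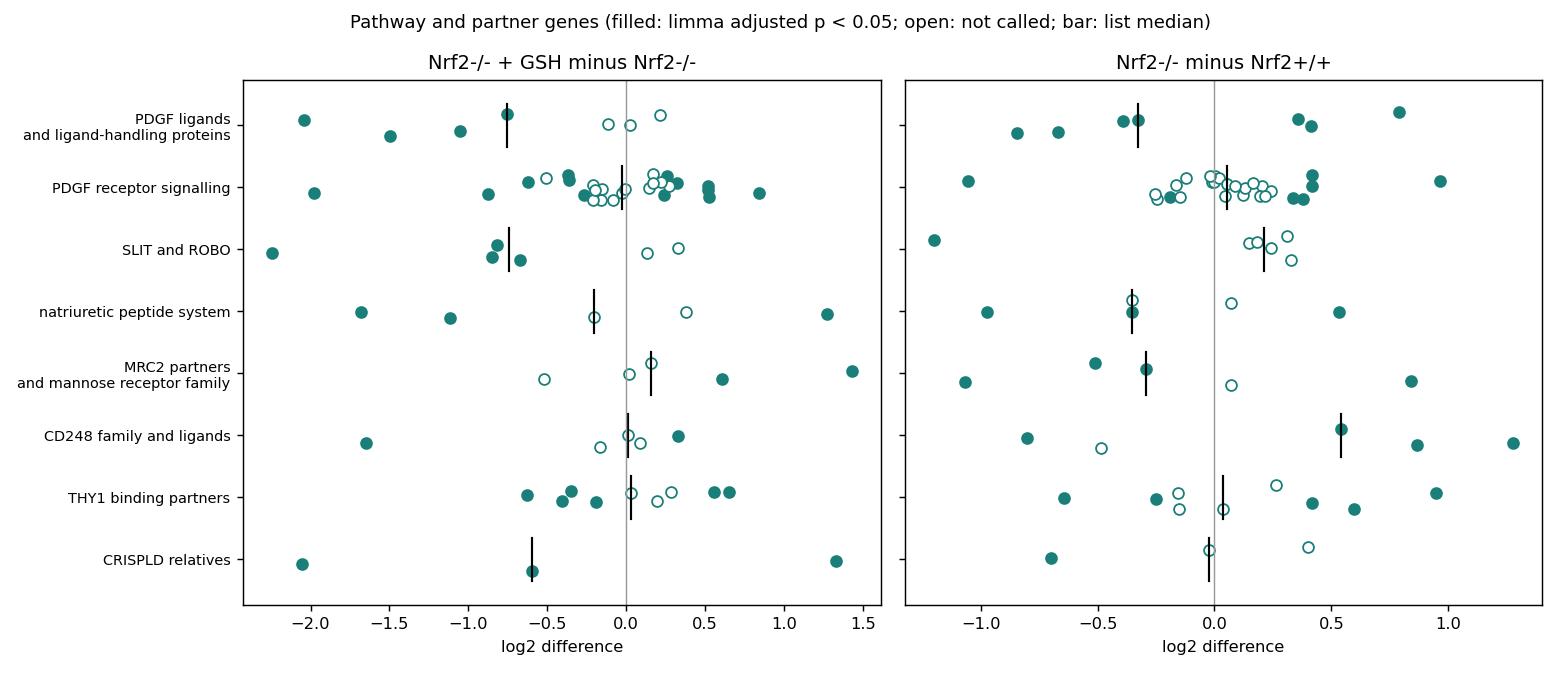
Log2 difference of each pathway or partner gene past the filter between KO+GSH and KO (left) and between KO and WT (right), with a row for each list; filled points have a limma adjusted p under 0.05, open points do not, and bars are list medians. The largest fall at the left is that of Slit2 (-2.24) and the largest rise that of Ly75 (1.43).

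Lists of cell type markers also had calls between the groups, in directions that differed by list. Of 15 fibroblast markers 13 passed the filter, and 0 were higher and 11 lower in KO+GSH than in KO, with a median log2 difference of -2.40. Col3a1, a fibrillar collagen gene, averaged 1174 ± 84.8 in KO+GSH, 13537 ± 1426 in KO and 9720.0 ± 393 in WT, and Dcn, a matrix proteoglycan gene, 1837 ± 51.3 in KO+GSH, 14165 ± 2251 in KO and 7345 ± 487 in WT. The 2 not called were Vim (-0.08) and Fn1 (0.08), the intermediate filament and matrix genes also used by other cultured cells. Between KO and WT 11 of the 13 were higher in KO and 0 lower, with a median of 0.44. Several of these calls were lost under alternatives. With the replicate number as a block the adjusted p from limma was 0.533 for Col1a1, 0.09 for Col1a2, 0.218 for Col5a1, 0.102 for Col6a1 and 0.392 for Fbln1. With no set term it was 0.358 for Col1a1, 0.1 for Col5a1 and 0.212 for Fbln1, and with quantile normalization 0.348 for Col1a1 and 0.273 for Col1a2. The Col1a1 call was also lost without WT replicate 3 (limma adjusted p = 0.0684) or 4 (0.0688). The summed signal of the list was 57459 to 66899 on KO+GSH arrays, 109024 to 147389 on KO arrays and 87722 to 98658 on WT arrays. No fibroblast marker was at 0, and only Dpt was not above the control level on any KO+GSH array.

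Pericyte and smooth muscle markers had 0 higher and 4 lower of 7 between KO+GSH and KO, and summed to 27976 to 32988 in KO+GSH, 33785 to 46659.5 in KO and 35225 to 39291 in WT. Des, the muscle intermediate filament gene, averaged 455 ± 93.0 in KO+GSH, 1748 ± 88.6 in KO and 2078 ± 121 in WT. Acta2, smooth muscle actin, was 0.33 lower in KO+GSH than in KO on the log2 scale by its brightest probe set. The dimmer Acta2 probe set named above for Cd248 averaged 70.3 in KO+GSH, 236.5 in KO and 237.9 in WT. The pericyte gene Higd1b was not above the control level on any of the 9 arrays. Mesothelial markers had 1 higher and 4 lower of 5 between KO+GSH and KO and 0 higher and 5 lower between KO and WT, and summed to 7401 to 8206 in KO+GSH, 4547 to 5287 in KO and 12416 to 13112 in WT. Msln made up most of the sum in KO+GSH only, at 7052 in KO+GSH, 944 in KO and 5699 in WT. It was the one called higher in KO+GSH than in KO, where Wt1, Bnc1, Upk3b and Lrrn4 were lower.

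Epithelial markers, among them Krt19, had 7 of 7 higher in KO+GSH than in KO (median 2.29) and 7 of 7 lower in KO than in WT (median -1.75). Their summed signal was 60637 to 65387 in KO+GSH, 13739.9 to 14528 in KO and 44411 to 45068 in WT. Of 6 type II cell genes 3 were higher and 0 lower, and the list summed to 4358 to 4956 in KO+GSH, 3288 to 3609 in KO and 2968 to 3564 in WT. Macrophage markers had 5 higher and 2 lower of 12 between the KO groups and 10 higher and 2 lower between KO and WT, with sums of 73348 to 88930.0 in KO+GSH, 58421 to 75356 in KO and 38346 to 41692 in WT. Of 8 endothelial genes 1 was higher and 3 were lower between the KO groups, with sums of 2355 to 3046 in KO+GSH, 2727 to 3268 in KO and 4149.8 to 4772 in WT. The part of these marker differences in the members' values was not tested.

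**Figure D4:**
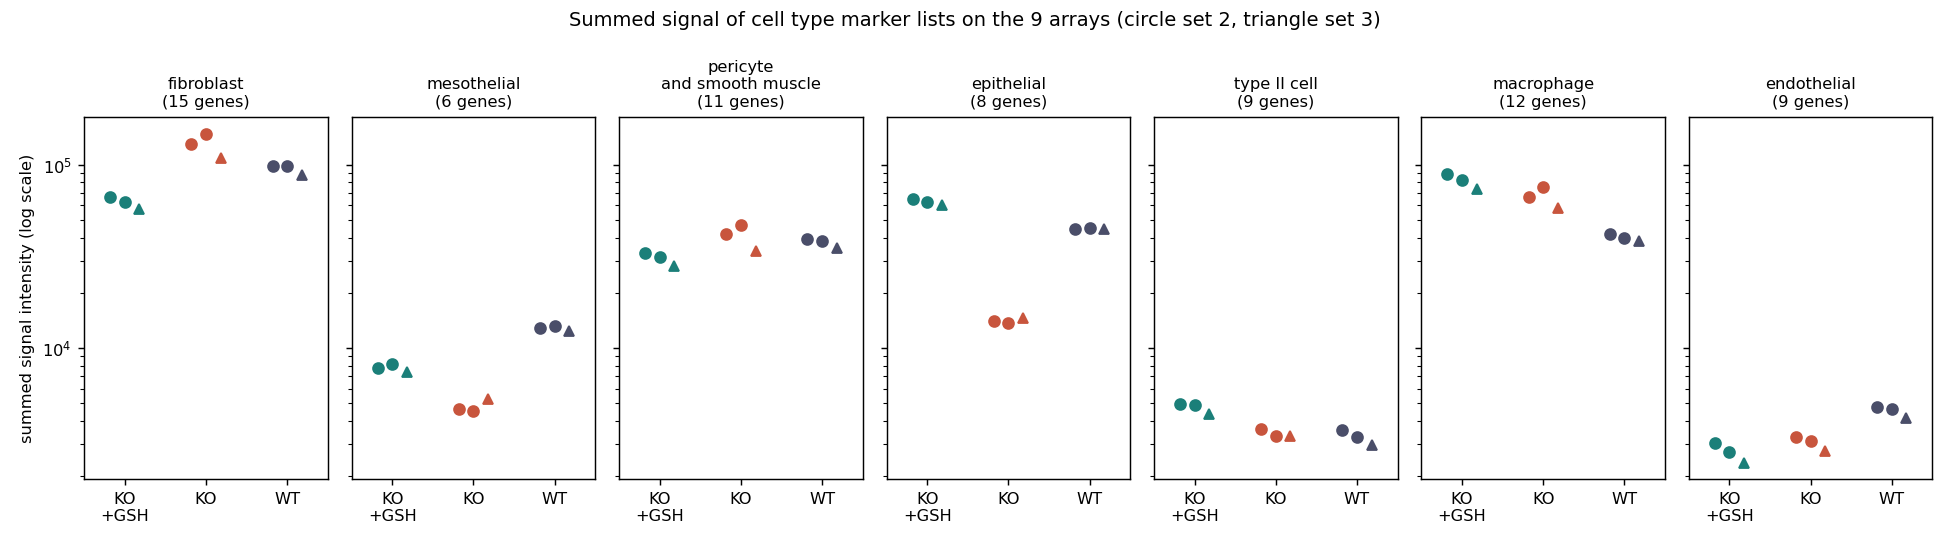
Summed signal (log scale) of 7 lists of cell type markers on the 9 arrays, with KO+GSH at the left, then KO, then WT; circles are arrays of set 2 and triangles the array of set 3. Fibroblast sums are lowest on KO+GSH arrays, and epithelial sums are lowest on KO arrays, at 13739.9 to 14528.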

How the data were processed

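The deposited values are intensities per probe set on a linear scale, 1 column for each of the 9 arrays, and the authors had scaled every array to a common level, since each had a 2% trimmed mean of 500.0. The sources used here name neither the software nor a genome build behind the intensities. After 64 array controls were left out, intensities were taken to log2, with 2 values at 0 set to 0.1, and no further normalization was applied. Probe sets below the median of the mean log2 intensity were left out, which kept 22519. Symbols came from the platform annotation (34945 probe sets with 1 symbol, 932 with several, 9160 with none), and 34741 matched RefSeq with 0 changes.

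A linear model with terms for group and set was fitted over the 9 arrays (limma 3.58.1, R 4.3.3), with variances moderated along the mean signal (residual degrees of freedom 5, prior 6.08). P-values were adjusted by Benjamini-Hochberg over all probe sets past the filter and called at 0.05. The control level of an array is the 95th percentile of 27 control probe sets, and a group at or below it on every array is given as a bound. Same-numbered KO+GSH and KO arrays deviated together from their group means (r = 0.32, 0.29 and 0.67). The label numbers were taken to pair them only in the alternative with the replicate number as a block. These arrays also belong to the same set, and the check does not separate number from set. For numbers shared with WT arrays of the same set, r was 0.42 for KO and 0.30 for KO+GSH. Where the set differed, r was -0.49 for KO and -0.45 for KO+GSH. The check therefore cannot tell whether the numbers pair any arrays.

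The members and gene lists were chosen with earlier results of these data known. All member probe sets and the 3 genes most correlated with each member were named. A rule gave up to 4 genes of each list with the smallest p between KO+GSH and KO. It also gave list genes called in opposite directions in that comparison and in KO against WT. Only some of the genes given by the rule are named, above all among the cell type markers. Pdgfc, Pdgfd, Vim, Fn1, Dpt, Higd1b, Upk3b and the marker genes used to check the labels were named after their values were seen. Alternatives were other filters, quantile normalization, a floor of 16, no set term, the replicate number as a block, set 2 alone, each array left out, only the arrays compared, and the fold rule stated in the series design. As run here, that rule asked for at least 6 of 9 pairwise comparisons at 1.5-fold. The mean of the 9 ratios, and that mean less its standard error, also had to reach 1.5.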

Additional observations from a re-analysis of the deposited data

How the results depend on the processing

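Among the members, no log2 difference of KO+GSH from KO and none called between KO and WT changed sign under the alternatives run. The sign did change for differences near 0 that were not called, those of Cd248, Pdgfrb, Mrc2 1421045_at and Pdgfa 1449187_at between KO and WT and of both Pdgfb probe sets between KO+GSH and WT. The member count between KO and WT was 9, and 7 to 12 over 19 alternatives, 7 to 11 when leaving out single arrays and 7 with the replicate block. Between KO+GSH and KO, which picked some members, the count of 18 is a description. It was 11 with the filter at the 70th percentile and 11 with only probe sets above the control level on all 9 arrays, an alternative chosen after seeing the data, as both leave fewer members to test. Between KO+GSH and WT, which shares the KO+GSH arrays, it was 17, and 11 and 10 with those 2 filters.

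Counts over all probe sets were 7964 between KO+GSH and KO, 6560 between KO and WT and 10074 between KO+GSH and WT. With no set term they were 4574, 2774 and 6181, and under the design text's fold rule 3423, 2309 and 4539, in that order. The replicate block gave 5824, 3253 and 6586. Leaving out single arrays gave 6659 to 7847, 4500 to 6825 and 8184 to 10452. Pathway and partner genes numbered 37, 32 and 42, with 17, 13 and 21 by the fold rule and 30 to 39, 25 to 33 and 37 to 43 without single arrays. Between KO and WT they numbered 18 with no set term and 15 with the replicate block. In the comparison of KO+GSH with KO the replicate block ended the calls of Lgals3 (limma adjusted p = 0.0954), Itgb3 (0.053), C1qc (0.0817), Marco (0.107) and Eng (0.0511) among the named genes and no other. Acta2 between KO and WT changed direction with quantile normalization, at -0.031 (limma adjusted p = 0.719) in place of 0.29 (0.0169). The causes of these changes were not tested. Signals near the control level, those of Mrc2, Cd248, Pdgfrb 1417148_at, Pdgfra 1438946_at and some Npr3 and Crispld2 probe sets in KO+GSH, limit how precisely their folds can be given.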

Other observations

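Among the THY1 binding partners, 2 of 9 genes past the filter were higher and 4 lower in KO+GSH than in KO. The integrin chain gene Itgb5 averaged 2955 ± 257 in KO+GSH, 3763 ± 328 in KO and 2812 ± 106 in WT (SD, n = 3 each), with a log2 difference of -0.35 between the KO groups (limma adjusted p = 0.001) and 0.42 between KO and WT (limma adjusted p = 4.22e-04). Itga5 (-0.41) and the adhesion receptor gene Adgre5 (-0.63) were lower in KO+GSH as well, and Itgb2, the leukocyte integrin chain, was higher (0.56). The Itgb5 call between KO and WT was lost with the replicate number as a block (limma adjusted p = 0.0554).

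The relatives of Crispld2 in the CAP family had calls in both directions. Glipr1 averaged 9604 ± 516 in KO+GSH, 3821 ± 241 in KO and 6202 ± 184 in WT, higher by 1.33 in KO+GSH than in KO (limma adjusted p = 3.26e-08) and lower in KO than in WT (-0.70, limma adjusted p = 1.16e-05). Pi15 averaged 95.9 ± 30.8 in KO+GSH, 387 ± 38.6 in KO and 292 ± 18.5 in WT (-2.05 between the KO groups, limma adjusted p = 9.45e-06), and Glipr2 was lower by a log2 difference of -0.60.

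Some partner genes differed between KO and WT but were not called between KO+GSH and KO. Lgals3bp, a secreted glycoprotein known to bind CD248, averaged 7239 ± 155 in KO+GSH, 8141 ± 520.4 in KO and 3351 ± 115 in WT (1.28 between KO and WT, limma adjusted p = 9.17e-08), and it was called between the KO groups with quantile normalization (limma adjusted p = 0.00967) and without KO replicate 2 (0.0218). Mrc1, the macrophage mannose receptor, averaged 2919.7 ± 66.5 in KO+GSH, 2618 ± 145 in KO and 1459.6 ± 22.1 in WT (0.84, limma adjusted p = 2.17e-06), and was called between the KO groups with quantile normalization (limma adjusted p = 0.0401).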
